A study of Mus musculus with 6 samples.

Results

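The clustered histone genes are the genes of the Hist1, Hist2 and Hist3 loci that encode the linker histone H1 and the core histones H2A, H2B, H3 and H4. They were taken by symbol, as every gene of the deposited table whose name starts with Hist1h, Hist2h, Hist3h or Hist4h, which gave 33 of 16729 genes. Of these, 4 belonged to H1, 8 to H2A, 9 to H2B, 5 to H3 and 7 to H4. The Hist1 locus on chromosome 13 held 25 of them, the Hist2 locus on chromosome 3 held 5 and the Hist3 locus on chromosome 11 held 3, one of which, Hist3h2bb-ps, is a pseudogene. No gene of a Hist4 locus was in the table.

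RNA-seq was done on tumors that mG7080 cells formed in the brains of C57BL/6 mice (C57BL/6J in the methods text). These cells are a gliomasphere culture from genetically engineered mice, so all 6 tumors share a single cell line and its genotype. Hosts were either wild type (WT) or carried a knockout of Esm1 (KO), which encodes the endothelial proteoglycan Endocan, a deletion that the injected cells did not carry. There were 3 libraries per group, WT 1 to WT 3 and KO 1 to KO 3, from tumor tissue of female mice that the reporting summary gives as 8 to 12 weeks old (the methods text gives a younger range). As tissue was sequenced in bulk, tumor and host RNA are mixed, and fewer cells of a type cannot be told apart from less RNA per cell.

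Most clustered histone genes are transcribed in S phase, when new DNA has to be packed into nucleosomes, and their mRNAs are removed once replication ends. Their mRNAs usually end in a conserved stem-loop and not in a poly(A) tail, and the stem-loop is bound by Slbp, the stem-loop binding protein. Some of these genes also have a poly(A) signal further downstream, and polyadenylated histone mRNAs are known from differentiated cells that no longer divide.

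The stem-loop was looked for in the longest annotated coding transcript of each gene because it is the part of the sequence that sets these mRNAs apart from others. It was searched past the stop codon as a fixed pattern, a stem of 6 base pairs around a loop of 4 bases, and was found in 22 of 33 genes. Of all protein-coding genes, clustered histone genes included, 0.31% (68 of 21877) held the pattern anywhere in a coding transcript. Of the others, 7 were annotated only to the stop codon or 1 base past it, 3 (Hist1h2bc, Hist2h2be and Hist2h3b) had none in the annotated transcript and 1 was the pseudogene. Hist2h3b was annotated for only 37 bases past the stop codon, whereas the stem-loops found began 25 to 59 bases past it. A single form of the stem-loop, printed for Hist1h1c, was shared by 14 genes, and the other 5 forms were held by 1 to 3 genes each. The sites of 7 genes that differ in form or in their values follow as DNA of the coding strand, with the stem and loop in capitals and 5 flanking bases on each side. Positions and sequence are those of GENCODE vM21 on GRCm38, and each site lies in the 3′ untranslated part of a single-exon gene.
Hist1h1c (chr13:23739507-23739532, plus strand): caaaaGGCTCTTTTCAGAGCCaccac
Hist1h2ao (chr13:21810893-21810918, plus strand): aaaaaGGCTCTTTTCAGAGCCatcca
Hist1h3e (chr13:23561898-23561923, minus strand): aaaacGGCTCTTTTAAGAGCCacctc
Hist1h4i (chr13:22040961-22040986, minus strand): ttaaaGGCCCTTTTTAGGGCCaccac
Hist1h4j (chr13:21735432-21735457, plus strand): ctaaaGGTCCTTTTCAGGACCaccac
Hist3h2a (chr11:58955167-58955192, plus strand): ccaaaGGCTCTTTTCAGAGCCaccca
Hist3h2ba (chr11:58949344-58949369, plus strand): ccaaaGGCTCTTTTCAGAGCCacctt

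The poly(A) signal AATAAA was present after the stop codon in 11 of 32 coding members (34.4%), at a median length of 199 bases after the stop codon, whereas 77.0% of all 21951 protein-coding genes held it in a median of 922 bases. These 11 genes were Hist1h1c, Hist1h1d, Hist1h2ac, Hist1h2ae, Hist1h2bc, Hist1h2be, Hist1h4j, Hist2h2be, Hist2h4, Hist3h2a and Hist3h2ba.

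RefSeq promoters (GRCm38.p6, 250 bases before the transcription start) were matched for 29 of 33 genes. The CCAAT box was found on either strand in 24 of them (82.8% against 33.8% of all 32851 promoters). It was found in every promoter of the H1, H2A, H2B and H3 classes, but in 1 of 6 H4 promoters. The sequence TATAAA, the core of the TATA box, was found in 14 (48.3% against 12.4%). The octamer ATTTGCAT was found in 5, all of them of H2A or H2B genes (17.2% against 1.6%). The H1 box AAACACA was found in all 4 H1 promoters and in no other class (6.2% of all promoters). The motifs were searched on both strands at any position in the 250 bases, so a match need not be a working promoter element. They do not overlap one another in the promoters printed here, 1 each from an H1, an H2A, an H4 and an H2B gene whose values are given further on. Capitals mark these 4 motifs.
Hist1h1e (chr13:23622559-23622808, minus strand): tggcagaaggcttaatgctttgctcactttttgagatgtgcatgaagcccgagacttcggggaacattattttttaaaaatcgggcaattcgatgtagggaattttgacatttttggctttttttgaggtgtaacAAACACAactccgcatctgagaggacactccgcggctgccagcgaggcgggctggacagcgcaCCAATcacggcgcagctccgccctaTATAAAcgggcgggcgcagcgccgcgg
Hist1h2ak (chr13:21753913-21754162, minus strand): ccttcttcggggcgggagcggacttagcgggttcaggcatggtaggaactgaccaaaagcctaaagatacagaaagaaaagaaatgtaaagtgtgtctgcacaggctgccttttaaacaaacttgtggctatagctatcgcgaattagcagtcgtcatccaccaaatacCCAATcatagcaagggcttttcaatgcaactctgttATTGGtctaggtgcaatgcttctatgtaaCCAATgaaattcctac
Hist1h4i (chr13:22041363-22041612, minus strand): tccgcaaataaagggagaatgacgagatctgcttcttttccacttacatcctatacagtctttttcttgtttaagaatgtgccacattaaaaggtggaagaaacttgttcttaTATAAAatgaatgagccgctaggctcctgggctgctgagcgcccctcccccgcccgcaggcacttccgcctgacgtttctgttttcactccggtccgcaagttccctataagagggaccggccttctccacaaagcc
Hist3h2ba (chr11:58948661-58948910, plus strand): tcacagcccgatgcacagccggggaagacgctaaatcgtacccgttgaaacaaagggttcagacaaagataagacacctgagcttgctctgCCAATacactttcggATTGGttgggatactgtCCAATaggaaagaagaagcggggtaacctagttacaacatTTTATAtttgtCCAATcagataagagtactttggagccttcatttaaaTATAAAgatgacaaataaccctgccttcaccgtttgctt
The promoter of Hist1h2ak is shared with Hist1h2bn, which starts 164 bases away in the opposite direction, and Hist1h2ae and Hist1h2bg form a second such pair, 180 bases apart.

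Libraries held 17632070 to 22241832 counted reads, and the 33 genes took 1695 to 3725 of them, or 0.00762% to 0.0175%. CPM are read counts scaled to a common library size with TMM factors, and 1 read was worth 0.0441 to 0.0568 CPM. A count of 0 allows up to 3 reads, or 0.132 to 0.17 CPM. The mean count was under 10 in 14 of the 33 genes, under 20 in 22 and over 100 in 6, so for most of them a difference can be seen only if it is large. Many of these genes are nearly identical, and the study counted uniquely mapped reads only. For 14 members, most 50-base windows of the transcript also occurred in another annotated gene, which can be one that overlaps the member at the same locus. Reads from windows that recur at another locus are not uniquely mapped. Counts of such genes may thus miss reads, and the split of reads among them is uncertain. The sources used here do not say whether mRNA was selected by its poly(A) tail or whether the counting used strand, and 10 members overlap an exon of a gene on the opposite strand.

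The label of KO 2 was in doubt. Esm1 itself was at 0.057 CPM in KO 1, 1.06 CPM in KO 2 and 0.208 CPM in KO 3 (1, 24 and 4 reads), and at 1.18, 1.11 and 4.07 CPM in WT 1, WT 2 and WT 3 (25, 21 and 82 reads). The library labelled KO 2 thus held Esm1 close to that of WT 1 and WT 2, and on the first principal component of all genes (84.5% of the variance) it also lay among the WT libraries. As the injected cells did not carry the deletion, Esm1 reads can also come from tumor cells, and their source was not tested. KO 2 was also the only KO library within the WT range for summed glioma progenitor markers (1839 CPM against 555 in KO 1 and 370 in KO 3). Leaving it out removes that library too. Fits were therefore made over all 6 libraries, over the 4 libraries used in the study's own table (KO 1, KO 3, WT 1 and WT 2), and over the 5 libraries that remain without KO 2.

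Levels were first compared across the 33 genes. Per length, on the deposited FPKM scale (read number corrected for library size and gene length), the highest means over the 6 libraries were those of Hist3h2a (46.0), Hist1h2bc (41.6), Hist1h1c (33.6), Hist3h2ba (19.1) and Hist1h4i (13.6). All other members were at 4.70 FPKM or less. By reads, 5 genes, namely Hist1h2bc, Hist1h1c, Hist3h2a, Hist2h2be and Hist3h2ba, took 73.1% to 87.1% of all reads of the group in each library. All of these 5 have AATAAA after the stop codon.

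**Figure D1:**
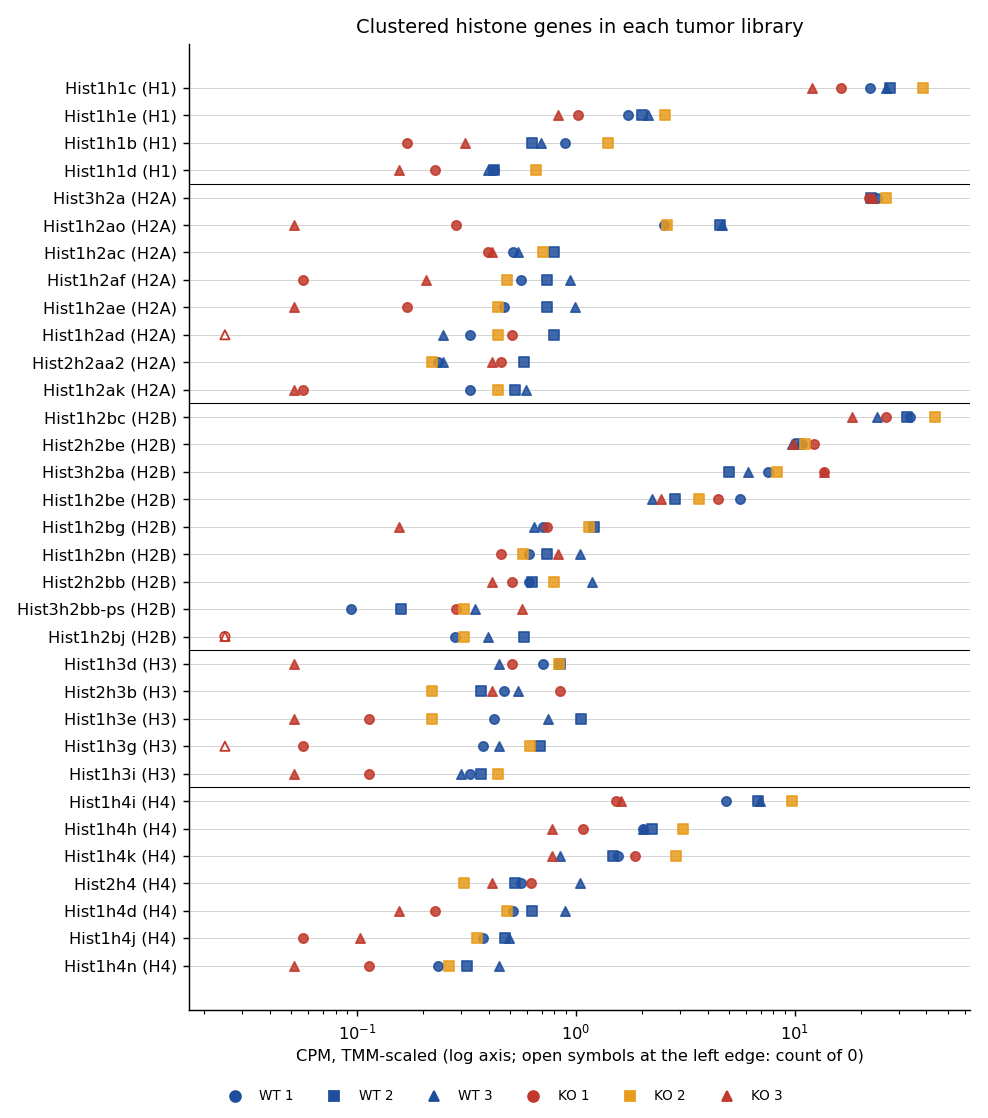
TMM-scaled CPM (log axis) of each of the 33 clustered histone genes, 1 symbol per library, grouped by class, with open symbols at the left edge for a count of 0. KO 1 and KO 3 (red) lie below all WT libraries (blue) in 19 genes and above them in 1, Hist3h2ba, while KO 2 (orange) lies above the WT range in 12.

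Over all 6 libraries, no member was called at an adjusted p under 0.05 with edgeR's quasi-likelihood test, as was true of all genes tested (0.0% lower and 0.0% higher). Of the 33 genes, 20 had enough reads to be tested, and 16 of these had a negative log2 fold change of KO over WT, with a median of -0.32 against -0.02 for all genes. At an unadjusted p under 0.05 there were 0 lower and 1 higher member (Hist3h2ba), against 11.9% and 15.2% of all genes. With the exact test of edgeR 0 members were called (0.241% of all genes lower and 0.408% higher). With DESeq2 0 were called lower (2.67%) and 1 higher (4.79%). All 3 KO libraries were below all 3 WT libraries in 5 members (14.6% of all genes) and above them in 1 (12.7%).

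Without KO 2, 11 of 24 tested members were called lower in KO (28.3% of all genes tested) and 1 higher (24.5%). The median log2 fold change of the 24 was -0.87 against -0.02 for all genes. Of the 11, Hist1h1b, Hist1h2ae, Hist1h2af, Hist1h2ak, Hist1h2ao, Hist1h3e and Hist1h4d passed the filter on low counts only through their WT libraries. A gene passes this filter more easily when 1 group is high, so all 33 were also fitted with no filter. With no filter, 16 were called lower (27.8% of all genes) and 1 higher (23.7%). Among genes with a mean count of at least 10, 7 members were called lower (28.5%). Of the tested members, 5 were called lower by over 4-fold (7.48%) and 0 higher by over 4-fold (1.51%). By rank, KO 1 and KO 3 were both below all WT libraries in 19 of 33 genes (39.7% of all genes), both above them in 1 (37.0%) and neither in 13. KO 2 was above the WT range in 12 members (22.7% of all genes), within it in 12 and below it in 9. The 19 members with lower KO 1 and KO 3 comprised all 4 H1 genes, 5 of 8 H2A, 2 of 9 H2B, 3 of 5 H3 and 5 of 7 H4 genes. Over the 4 libraries, 2 of 20 tested members were called lower (13.9% of all genes), 1 of them by over 4-fold (6.23%), and 0 higher (2.87%), while at an unadjusted p under 0.05 there were 8 lower (26.2%) and 1 higher (19.9%). The exact test called 6 lower (22.1%) and 1 higher (16.0%) over these 4 libraries, and DESeq2 2 lower (19.5%) and 1 higher (16.6%). With no filter the numbers were 2 lower (13.1%) and 0 higher (2.49%). No member was called higher by over 4-fold (0.451%).

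**Figure D2:**
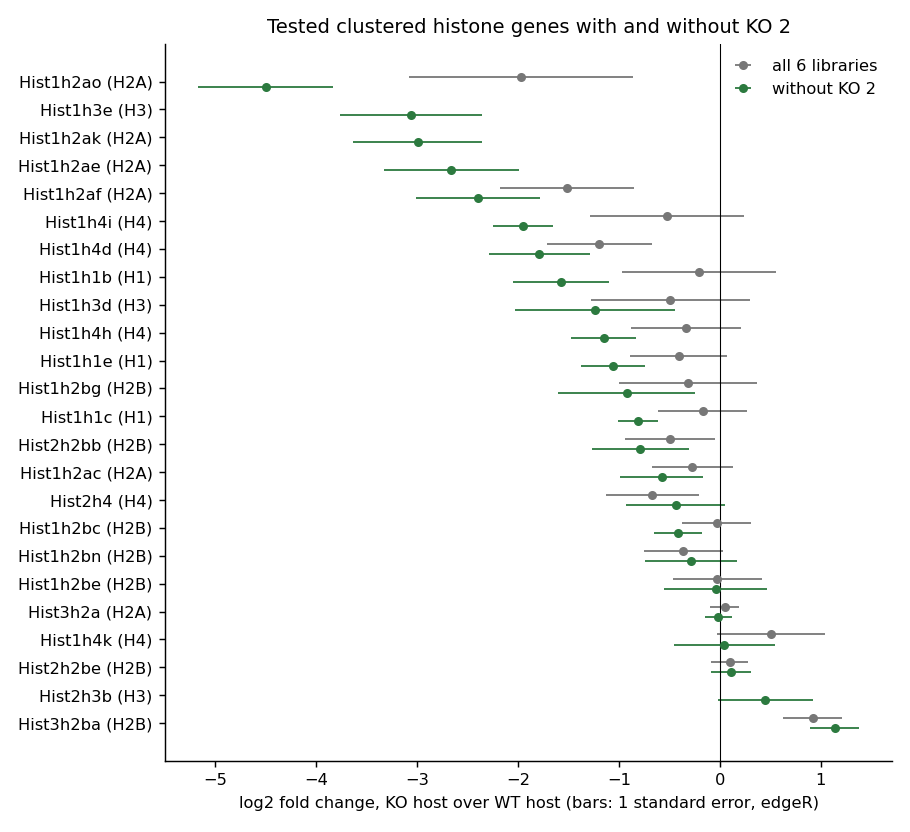
Log2 fold change of KO over WT (bars, 1 standard error) for the 24 clustered histone genes tested without KO 2 (green), beside the values over all 6 libraries (grey) for the 20 of them tested there. Hist1h2ao had the lowest value and Hist3h2ba the highest in both, and most green points lie further from 0 than the grey ones.

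The linker histones H1 bind the DNA between nucleosomes. Hist1h1c, the most highly expressed of them, was at 16.2, 38.7 and 12.04 CPM in KO 1, KO 2 and KO 3, and at 21.98, 27.2 and 26.2 CPM in WT 1, WT 2 and WT 3. Both KO 1 and KO 3 were thus below every WT library, and KO 2 above them. Its log2 fold change was -0.17 (SE 0.44, adjusted p = 0.78) over 6 libraries, -0.79 (SE 0.25, adjusted p = 0.076) over 4 and -0.81 (SE 0.19, adjusted p = 0.0204) without KO 2. Hist1h1e was at 1.02, 2.56 and 0.831 CPM in the KO libraries and at 1.74, 2.01 and 2.13 CPM in the WT libraries, in the same order, with a log2 fold change of -0.41 (SE 0.48, adjusted p = 0.534) over 6 libraries, -1.01 (SE 0.39, adjusted p = 0.107) over 4 and -1.06 (SE 0.32, adjusted p = 0.0349) without KO 2. Its transcript overlaps that of Hist1h2be on the same strand, so reads of both genes cannot be fully separated. All 3 tested H1 genes were called lower without KO 2 (28.3% of all genes tested) and none over 4 (13.9%) or 6 libraries (0.0%). Hist1h1d (not named by the rule), which had 3 to 15 reads per library, was not tested.

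In the H2A class, the gene with the most reads was Hist3h2a. It was at 21.9, 26.2 and 22.9 CPM in the KO libraries and at 23.8, 22.2 and 22.5 CPM in the WT libraries. Its groups overlapped, and its log2 fold change was 0.05 (SE 0.14) over 6 libraries, -0.04 (SE 0.19) over 4 and -0.01 (SE 0.14) without KO 2. This gene overlaps an exon of Trim17 on the same strand. In contrast, Hist1h2ao was at 0.284, 2.60 and 0.052 CPM in KO 1, KO 2 and KO 3 (5, 59 and 1 reads) and at 2.54, 4.55 and 4.66 CPM in the WT libraries (54, 86 and 94 reads). Together KO 1 and KO 3 held far fewer reads than any single WT library, and KO 2 was close to WT 1. The log2 fold change was -1.97 (SE 1.11, adjusted p = 0.242) over 6 libraries, -4.37 (SE 0.75, adjusted p = 0.0344) over 4 and -4.50 (SE 0.67, adjusted p = 0.00852) without KO 2, the lowest of any member tested in each fit. Over 4 libraries and without KO 2, Hist1h2ao passed the filter on low counts only through its WT libraries. Of its 50-base windows, 93.5% occur in another gene. As only uniquely mapped reads were counted, its count may leave out many of its reads and rest on a small part of its sequence. Summed, the 7 H2A genes other than Hist3h2a were at 1.93, 5.33 and 1.19 CPM in KO 1, KO 2 and KO 3 and at 4.99, 8.72 and 8.24 CPM in the WT libraries.

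Hist1h2bc, the H2B gene with the most reads, was at 26.2, 43.7 and 18.3 CPM in the KO libraries and at 33.8, 32.7 and 23.8 CPM in the WT libraries. Its groups overlapped, with a log2 fold change of -0.03 (SE 0.34) over 6 libraries, -0.57 (SE 0.24, adjusted p = 0.126) over 4 and -0.42 (SE 0.24, adjusted p = 0.182) without KO 2. Every 50-base window of Hist2h2bb also occurs in other annotated genes, 2 in all, none of them a clustered histone gene. This gene overlaps exons of Gm42743 on the same strand and of Gm20628 on the opposite strand, so its windows need not recur at another locus. Hist2h2bb had 8 to 24 reads per library and was not called in any fit. No H2B gene was called lower in any of the 3 fits, and 7 of 9 were tested in each. Of all genes tested, 28.3% were called lower without KO 2, 13.9% over 4 libraries and 0.0% over 6.

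Hist3h2ba was the only member above the WT range in every KO library. This H2B gene of the Hist3 locus was at 13.6, 8.29 and 13.6 CPM in KO 1, KO 2 and KO 3 and at 7.58, 5.02 and 6.10 CPM in the WT libraries. Its groups did not overlap, also with KO 2 included. The log2 fold change was 0.92 (SE 0.29, adjusted p = 0.184) over 6 libraries, 1.11 (SE 0.32, adjusted p = 0.0648) over 4 and 1.14 (SE 0.25, adjusted p = 0.0162) without KO 2. With DESeq2 over 6 libraries the value was 0.96 (adjusted p = 0.0494). Shared sequence was small here, as 22.1% of its windows occur elsewhere, all in Hist3h2bb-ps. That pseudogene was at 0.284, 0.308 and 0.571 CPM in the KO libraries and at 0.094, 0.159 and 0.347 CPM in the WT libraries, with 2 to 11 reads each, and its groups overlapped. Hist3h2a, which lies on the same strand of the same locus, overlapped between the groups.

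H3 genes were all low. Hist1h3d, the only one tested over 6 libraries, was at 0.511, 0.837 and 0.052 CPM in the KO libraries and at 0.706, 0.846 and 0.447 CPM in the WT libraries, with overlapping groups and a log2 fold change of -0.49 (SE 0.79, adjusted p = 0.646). Over 4 libraries this was -1.47 (SE 0.87, adjusted p = 0.229) and without KO 2 -1.24 (SE 0.79, adjusted p = 0.227). Without KO 2, Hist1h3e (chosen after its values were seen) was called lower, with 2, 5 and 1 reads in the KO libraries against 9, 20 and 15 in the WT libraries and a log2 fold change of -3.06 (SE 0.70, adjusted p = 0.0184). With KO 2 left out, Hist1h3e passed the filter on low counts only through its WT libraries. It had too few reads to be tested over 4 or 6 libraries. The sum of the 5 H3 genes was 1.65, 2.34 and 0.57 CPM in the KO libraries and 2.31, 3.33 and 2.48 CPM in the WT libraries, or 29, 53 and 11 against 49, 63 and 50 reads.

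In the H4 class, Hist1h4i was at 1.53, 9.74 and 1.61 CPM in the KO libraries and at 4.85, 6.77 and 6.95 CPM in the WT libraries. In KO 1 and KO 3 it was below every WT library, while KO 2 was the highest of all 6. The log2 fold change was -0.52 (SE 0.77, adjusted p = 0.616) over 6 libraries, -1.87 (SE 0.36, adjusted p = 0.0386) over 4 and -1.95 (SE 0.29, adjusted p = 0.00872) without KO 2. Hist1h4d was below the WT range in all 3 KO libraries (0.227, 0.485 and 0.156 CPM against 0.518, 0.634 and 0.893 CPM). Its log2 fold change was -1.19 (SE 0.52, adjusted p = 0.188) over 6 libraries, -1.56 (SE 0.54, adjusted p = 0.0868) over 4 and -1.79 (SE 0.50, adjusted p = 0.03) without KO 2. Over 4 libraries and without KO 2, Hist1h4d passed the filter on low counts only through its WT libraries. Hist1h4k and Hist2h4 were the H4 genes in which KO 1 and KO 3 were not both below the WT range. Hist1h4k was at 1.87, 2.86 and 0.779 CPM in the KO libraries and at 1.55, 1.48 and 0.844 CPM in the WT libraries, with a log2 fold change of 0.51 (SE 0.53) over 6 libraries, -0.20 (SE 0.53) over 4 and 0.05 (SE 0.51) without KO 2. Hist2h4, not named by the rule, was at 0.624, 0.308 and 0.415 CPM in the KO libraries and at 0.565, 0.529 and 1.04 CPM in the WT libraries, and was not called in any fit.

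The oppositely oriented neighbours, chosen after their values were seen, are given as pairs. Without KO 2, Hist1h2ak had a log2 fold change of -2.99 (SE 0.64, adjusted p = 0.016) and Hist1h2bn, across their shared promoter, -0.28 (SE 0.45, adjusted p = 0.614). For the second pair, the values were -2.66 (SE 0.67, adjusted p = 0.0227) for Hist1h2ae and -0.92 (SE 0.68, adjusted p = 0.285) for Hist1h2bg. Both Hist1h2ak and Hist1h2ae passed the filter on low counts there only through their WT libraries, and neither was tested over 4 or 6 libraries. Hist1h2ak held 1, 10 and 1 reads in KO 1, KO 2 and KO 3 against 7, 10 and 12 in the WT libraries. For Hist1h2ae the reads were 3, 10 and 1 against 10, 14 and 20. The difference within a pair was not tested, and 57.0% of the windows of Hist1h2ak and 86.4% of those of Hist1h2bn occur in other genes. Hist1h2bj, also chosen after its values were seen, was not tested for its low counts, with 0 reads in KO 1 and KO 3 against 25 in the WT libraries, at least 5.1-fold lower (with a floor of 3 reads over both KO libraries), and KO 2 held 7 reads.

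Summed over a class, H1 was at 17.7, 43.3 and 13.3 CPM in KO 1, KO 2 and KO 3 and at 28.2 ± 2.80 CPM in the WT libraries (SD, n = 3). H4 was at 5.51, 17.1 and 3.89 CPM against 11.8 ± 1.42 CPM, and H2A at 23.8, 31.5 and 24.1 CPM against 30.2 ± 1.18 CPM. H2B was at 58.5, 69.9 and 46.1 CPM against 53.3 ± 7.38 CPM. Class sums of KO 1 and KO 3 thus lay below the WT libraries in H1, H2A, H3 and H4, and overlapped with them in H2B. The ratio of the mean of KO 1 and KO 3 to that of WT was 0.4 for H4, 0.41 for H3, 0.549 for H1, 0.793 for H2A and 0.982 for H2B. With all 3 KO libraries it was 0.752, 0.561, 0.877, 0.877 and 1.09. Class sums have no test here.

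**Figure D3:**
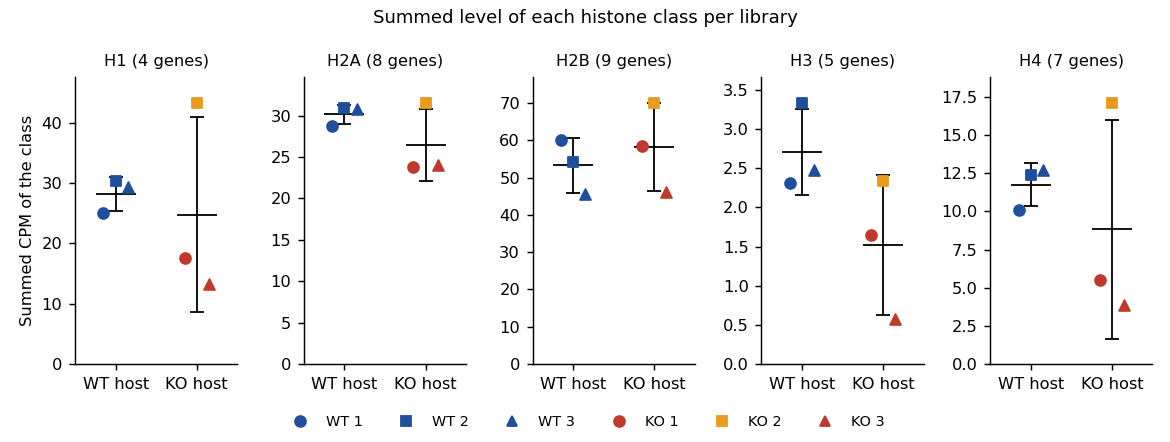
Summed TMM-scaled CPM of each histone class in WT and KO hosts, 1 symbol per library with the mean and SD (n = 3) of the group in black, on axes that start at 0. KO 2 (orange) is the highest library for H1, H2A, H2B and H4, and KO 1 and KO 3 (red) are below the WT libraries for every class but H2B.

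Sums of the 5 genes with the most reads were at 90.1, 128 and 76.6 CPM in KO 1, KO 2 and KO 3 and at 98.0, 97.5 and 88.3 CPM in WT 1, WT 2 and WT 3, so that KO 1 lay within the WT range, and the mean of KO 1 and KO 3 was 0.881 times that of WT. The other 28 were at 17.0, 36.2 and 11.4 CPM against 28.4, 33.7 and 32.5 CPM, a ratio of 0.449. Grouped by the poly(A) signal, the ratio was 0.872 for the 11 genes in which AATAAA was found and 0.375 for the other 22. The former group holds all 5 of these genes. Of the other 22, 7 were annotated only to the stop codon or 1 base past it and 1 is the pseudogene. In these the signal could not be looked for. The rest of the 22 were annotated for 37 (Hist2h3b) to 1209 (Hist1h1e) bases past the stop codon. For the 11 genes with AATAAA this length was 199 (Hist1h2ae) to 4931 bases (Hist1h1d). A signal past the annotated end could not be seen, so the grouping also follows annotated length. Without KO 2, 2 of 9 tested genes with AATAAA were called lower and 1 higher (28.3% and 24.5% of all genes tested), with a median log2 fold change of -0.42. Of the 15 tested among the other 22, 9 were called lower and 0 higher, with a median of -1.24. The difference between these groups was not tested.

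Genes that make, carry or replace histones were then compared. Of all genes tested, 28.3% were called lower and 24.5% higher without KO 2, and 13.9% and 2.87% over 4 libraries. The 23 genes of DNA replication (helicase subunits, polymerases and nucleotide synthesis) were at 254, 1364 and 185 CPM in sum in KO 1, KO 2 and KO 3 and at 1267, 2413 and 2156 CPM in the WT libraries. All 23 had a negative log2 fold change in each fit, with medians of -1.71 over 6 libraries, -3.22 over 4 and -3.31 without KO 2, where all 23 were called lower. Their log2 fold changes ranged from -0.95 for Fen1, a flap endonuclease, to -2.24 for Cdc6, a replication licensing factor, over 6 libraries (none called). The median of the tested clustered histone genes was -0.87 without KO 2, against this -3.31.

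Histone chaperones, which carry histones to DNA, had a median log2 fold change of -0.55 over 6 libraries (0 of 21 called), -0.80 over 4 (9 called lower) and -0.83 without KO 2 (15 called lower and 1 higher). The ends of the list over 6 libraries were Chaf1b, a subunit of the chromatin assembly factor CAF-1 (-1.98), and Cabin1, a partner of the HIRA chaperone (0.33), and over 4 these were -4.20 (adjusted p = 0.0343) and 0.45 (adjusted p = 0.117). Without KO 2 they were -4.38 (adjusted p = 0.00798) and 0.42 (adjusted p = 0.0414). The histone variants, which are encoded outside these clusters, had medians of -0.62 over 6 libraries (0 of 11 called), -0.92 over 4 (6 called lower) and -0.99 without KO 2 (9 lower and 1 higher). Without KO 2, Cenpa, the centromeric H3 variant, fell by 4.32 on the log2 scale (adjusted p = 0.00798), and H2afj, an H2A variant, rose by 0.43 (adjusted p = 0.0347). Over 4 libraries the values were -4.13 (adjusted p = 0.0343) for Cenpa and 0.47 (adjusted p = 0.0913) for H2afj, and over 6 they were -1.85 (adjusted p = 0.27) and 0.39 (adjusted p = 0.184). In sum, the variants were at 725, 1597 and 657 CPM in the KO libraries and at 1388, 2037 and 2085 CPM in the WT libraries, far above the clustered genes (88.0 to 164 CPM), although these are sums of reads and not levels per length.

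The 21 genes of histone mRNA processing and transcription had medians of -0.46 over 6 libraries (0 called), -0.60 over 4 (3 called lower) and -0.64 without KO 2 (10 called lower). Slbp was at 22.5, 44.3 and 22.7 CPM in the KO libraries and at 42.0, 62.3 and 60.7 CPM in the WT libraries. Both KO 1 and KO 3 were below every WT library and KO 2 within their range, and its log2 fold change was -0.88 (SE 0.33, adjusted p = 0.184) over 6 libraries, -1.20 (SE 0.24, adjusted p = 0.0397) over 4 and -1.26 (SE 0.20, adjusted p = 0.00952) without KO 2. Npat, the coactivator of histone gene transcription, had log2 fold changes of -0.49 over 6 libraries (adjusted p = 0.184), -0.71 over 4 (adjusted p = 0.0645) and -0.66 without KO 2 (adjusted p = 0.0198). Those of Casp8ap2, a component of histone locus bodies, were -0.64 (adjusted p = 0.193), -0.93 (adjusted p = 0.0573) and -0.96 (adjusted p = 0.0142). The lowest value over 6 libraries was that of Cdk2, the kinase that acts on Npat (-1.43, adjusted p = 0.284, against -3.13 over 4 libraries, adjusted p = 0.0343), and the highest that of Ncbp2, a subunit of the cap-binding complex (0.16, adjusted p = 0.359).

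**Figure D4:**
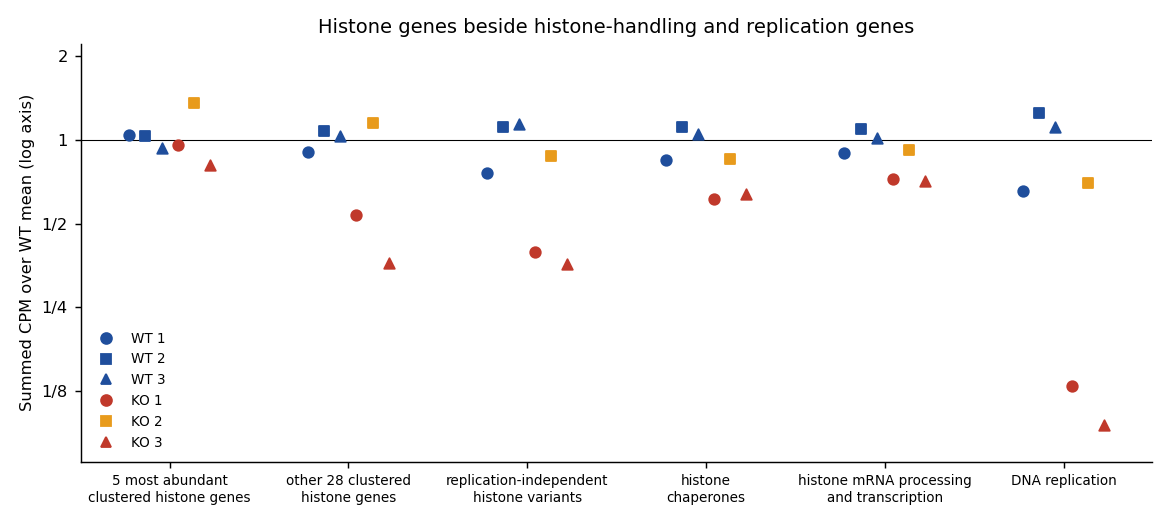
Summed TMM-scaled CPM of 6 gene groups divided by the WT mean of that group (log axis), 1 symbol per library. KO 1 and KO 3 (red) lie near the WT libraries for the 5 clustered histone genes with the most reads, lower for the other 28, and lowest for DNA replication, while KO 2 (orange) lies between 0.701 and 1.353 times the WT mean for all 6 groups.

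Markers of other cell types also differed between these libraries. Their calls stand beside 28.3% of all genes tested called lower and 24.5% called higher without KO 2. The 12 neuron markers summed to 12261, 4615 and 14928 CPM in KO 1, KO 2 and KO 3 and to 1901 to 5434 CPM in the WT libraries, with 12 of 12 positive in each fit and 11 called higher without KO 2. The 8 myelinating oligodendrocyte markers summed to 7452, 3180 and 3849 CPM and to 1351 to 3311 CPM, with 2 called higher without KO 2. The 8 astrocyte markers summed to 6744, 4634 and 6090 CPM and to 3292 to 4244 CPM, with 5 called higher and 1 lower. The 8 glioma progenitor markers summed to 555, 1839 and 370 CPM in the KO libraries and to 1452 to 1956 CPM in the WT libraries, with 7 called lower without KO 2. The 8 endothelial markers (186 to 249 and 205 to 259 CPM) overlapped between the groups in sum, with 1 called lower and 2 higher without KO 2. The 8 microglia markers summed to 400, 596 and 383 CPM and to 448 to 495 CPM, with 4 called lower and 1 higher. The 6 T cell markers in the table summed to 26.05, 36.8 and 5.14 CPM and to 24.4 to 29.4 CPM, with 5 of 6 called lower without KO 2, and of 5 red blood cell markers the table held only Alas2. No marker in the table had a count of 0. The part of these markers in the values of the histone genes was not tested.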

How the data were processed

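RNA from tumors of 3 Esm1 WT and 3 Esm1 KO hosts was sequenced (kit NEBNext Ultra per the labels, Ovation Ultralow per the methods text). The submitters' processing notes name CASAVA 1.8.2 and edgeR, and the reads were aligned by the authors to a genome given as mm10 in the labels and as hg38 in the methods text. The deposited counts are whole numbers of uniquely mapped reads per gene, as counted by the authors with HTSeq, without normalization. The deposited FPKM values were computed by the authors per gene and library, and were used here only to order genes by level. Normalized signal and the authors' log2 fold changes, p-values and false discovery rates in the same table were not used. No gene was listed with counts in fewer than 4 libraries or with a highest count under 5.

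Groups followed the labels. A legend of the study gives 3 mice per group for this RNA-seq, while the labels name no animals. Counts were fitted over all genes in R 4.3.3 with edgeR 4.0.16 (filterByExpr with a minimum count of 10 and a minimum total of 15, TMM factors, quasi-likelihood F test, Benjamini-Hochberg adjustment), and a gene was called at an adjusted p under 0.05. All adjusted p-values are from this test unless another tool is named. Intervals and floors cover counting error only, since PCR copies were not marked. Alternatives were RLE and upper quartile scaling, library size alone, no filter on low counts, a mean count of at least 10, DESeq2 1.42.0, limma-voom (limma 3.58.1), edgeR's exact test, a replicate block and each replicate left out. The fitting code was tested on simulated data. Sums and sequence features came from Python (3.11.15) with pandas (version 2.3.3) and numpy (version 2.4.6), and plots from matplotlib (version 3.10.9). They used gene models of GENCODE vM21 and promoters of RefSeq.

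The members, gene lists and tests were chosen with earlier results of these data known. Genes named by rule were, in each class, the gene with the highest mean CPM, those with the lowest and highest log2 fold change over 6 libraries, and that with the smallest p over 4. The rule also named members higher in KO and called in any fit, members whose sign differed between 6 and 4 libraries, all Hist3 genes, Esm1, both ends of each companion list, Slbp, Npat and Casp8ap2. Any other gene with a value in the text was chosen after its values were seen. The full genotype of the cell line is not reported here.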

Additional observations from a re-analysis of the deposited data

How the results depend on the processing

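KO 2 decided most calls. Over all 6 libraries, leaving out KO 2 gave 11 members called lower (28.3% of all genes tested) and 1 called higher (24.5%). Leaving out any other replicate gave 0 and 0, as was true of all genes tested. With all 6 libraries, DESeq2 called 1 member higher (4.79%). Over 4 libraries, leaving out any replicate leaves 1 library in a group, so calls of those fits are not counted here. With all 4 libraries, the exact test called 6 members lower (22.1% of all genes) and 1 higher (16.0%), and DESeq2 called 1 higher (16.6%). Without KO 2, 7 members were called lower at a mean count of at least 10 (28.5%), and 16 with no filter (27.8%). Where 1 KO or WT library remained, it was assumed to vary like the other group. Low counts limit most members.

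With each replicate left out, medians over 6 libraries ranged from -0.83 to -0.46 for chaperones and from -3.31 to -1.25 for DNA replication. Over 4 libraries they ranged from -0.80 to -0.34 for histone mRNA processing, -1.04 to -0.52 for chaperones and -3.63 to -2.65 for DNA replication. The ratio of KO over WT ranged from 0.549 to 1.08 for H1 and from 0.40 to 0.962 for H4, and that of KO 1 and KO 3 over WT from 0.211 (without KO 1) to 0.608 for H3. With library size alone, the ratio of KO 1 and KO 3 over WT was 0.463 for H1, 0.668 for H2A and 0.83 for H2B, and with RLE factors 0.82 for H2A. For H2B it crossed 1 (1.01 with RLE). The cause was not tested.

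The labels do not say whether replicate numbers pair the samples. Correlations between same-numbered libraries were 0.549, 0.594 and -0.21 for numbers 1, 2 and 3. As KO 3 with WT 1 gave 0.541, these values do not settle pairing. The replicate block over 6 libraries called 0 members lower and 0 higher, as was true of all genes tested, with a median of -2.34 for DNA replication.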
